A study of Mus musculus with 22 samples.

Results

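A group of 10 direct targets of the glucocorticoid receptor was followed across social rank and home cage in mouse brain. The members were taken by symbol, as the rows Fkbp5, Sgk1, Tsc22d3, Nfkbia, Cdkn1a, Zbtb16, Ddit4, Plin4, Sult1a1 and Mt2 of both deposited count tables, so 10 of the 24421 listed genes were described. All 10 passed the filter on low counts in males, in females and in both sexes together. Total RNA from the right brain hemisphere was sequenced for 22 mice, of which 14 were male (7 dominant, 7 submissive) and 8 female (4 dominant, 4 submissive). All mice had the strain label C57B6/J OlaHsd, which the methods of the study write C57BL/6JOlaHsd, an inbred black laboratory strain, and the labels name no mutation, transgene or drug treatment in any group. Mice were ranked when 10 to 12 weeks old by the tube test, a contest in which 1 mouse forces another backwards out of a narrow tube. Each cage of 4 mice gave 1 dominant and 1 submissive animal, and both cage mates were sacrificed at the same time, between 9 and 12 h with lights on at 6 h. Rank is thus a position among cage mates and not a treatment, and each dominant mouse was set beside a submissive mouse of the same replicate number. The library names give such a pair the same cage number, or, in female replicates 3 and 4, the same group label. By the methods of the study, some females of middle rank were regrouped and ranked again, and whether replicates 3 and 4 are such groups is not given in the sources used here. The study also measured serum corticosterone, and those values were not analysed here.

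Corticosterone, the main glucocorticoid of mice, crosses into the brain and binds the glucocorticoid receptor, which the chaperone Hsp90 holds ready in the cytoplasm. The bound receptor enters the nucleus and pairs on a palindromic DNA element, the glucocorticoid response element, from which it raises transcription of genes such as these. Several of the products act against the signal or its consequences: Fkbp5 lowers the hormone affinity of the receptor, Tsc22d3 and Nfkbia restrain inflammatory transcription, and Ddit4 restrains growth signalling through mTORC1.

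The sequences upstream of the members were searched for the letters that the receptor reads. RefSeq promoters of the build GRCm38.p6, from 250 bases before to 50 bases after each start site, were held for 9 of the 10 members, all but Zbtb16, with 17 promoters in all because Sgk1, Tsc22d3 and Cdkn1a have several. Both strands were searched for the full element, the half-site AGAACA followed by any 3 bases and its reverse complement TGTTCT, which 3 of 32544 promoters held (0.00922%). One of these 3 was a promoter of Sgk1, with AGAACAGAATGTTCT at position -189 from the start site. Single half-sites, which are part of the full element, were found in 18.9% of all promoters and in 5 of the 17 member promoters (29.4%), which belong to Sgk1, Tsc22d3 and Sult1a1. The 250 bases before the start site of these 3 are shown 5′ to 3′ with the half-sites in capitals, because the full element or a half-site stands in them; 2 other Sgk1 start sites also had a half-site and are not shown.
Sgk1, chr10:21993640-21993889, plus strand: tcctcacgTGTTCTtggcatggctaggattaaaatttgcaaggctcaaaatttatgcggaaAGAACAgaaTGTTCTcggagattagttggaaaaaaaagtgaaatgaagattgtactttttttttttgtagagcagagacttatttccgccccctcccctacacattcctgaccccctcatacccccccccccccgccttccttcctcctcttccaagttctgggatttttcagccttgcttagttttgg
Tsc22d3, chrX:140600523-140600772, minus strand: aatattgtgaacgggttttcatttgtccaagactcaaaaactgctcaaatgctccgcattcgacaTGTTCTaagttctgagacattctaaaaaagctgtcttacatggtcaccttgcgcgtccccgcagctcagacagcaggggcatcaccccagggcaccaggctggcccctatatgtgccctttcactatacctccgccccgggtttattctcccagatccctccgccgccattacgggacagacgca
Sult1a1, chr7:126676419-126676668, minus strand: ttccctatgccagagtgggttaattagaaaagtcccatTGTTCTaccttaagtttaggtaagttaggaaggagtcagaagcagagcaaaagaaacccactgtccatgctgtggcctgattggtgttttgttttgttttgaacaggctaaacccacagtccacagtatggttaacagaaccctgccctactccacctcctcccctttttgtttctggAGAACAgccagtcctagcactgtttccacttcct

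Other motifs were searched for in the same windows. The metal response element, TGCACNC or TGCGCNC, was in 25.9% of all promoters and in 4 of the 17 member promoters (23.5%), 1 each of Ddit4, Mt2, Nfkbia and Sgk1. Mt2 held 4 matches, at positions -223, -128, -50 and 5, and the 3 before the start site are in capitals in its sequence. An NF-kB site, GGGA and TTCC with any bases at the 2 places between them, or its reverse complement, was in 1.47% of all promoters and in 1 of the 17, that of Nfkbia, at position -29, where it stands in capitals. Of the other motifs searched, the TATA box TATAAA was in 13.6% of promoters and in 3 of the 17 (17.6%), of Nfkbia and Sgk1, and the cyclic AMP response element TGACGTCA was in 1.8% and in 0 of the 17. A match describes letters in these windows and no binding was measured.
Nfkbia, chr12:55492648-55492897, minus strand: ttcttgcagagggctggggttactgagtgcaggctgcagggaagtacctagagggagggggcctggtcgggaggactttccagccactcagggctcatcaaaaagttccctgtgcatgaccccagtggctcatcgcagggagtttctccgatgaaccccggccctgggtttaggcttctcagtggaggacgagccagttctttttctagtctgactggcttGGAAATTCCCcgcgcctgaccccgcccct
Mt2, chr8:94172368-94172617, plus strand: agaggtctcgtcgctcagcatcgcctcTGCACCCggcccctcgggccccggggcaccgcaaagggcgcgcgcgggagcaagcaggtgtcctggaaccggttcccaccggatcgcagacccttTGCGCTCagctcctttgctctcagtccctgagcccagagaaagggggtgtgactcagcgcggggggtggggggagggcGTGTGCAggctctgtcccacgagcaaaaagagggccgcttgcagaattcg

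Between 12403943 and 16488762 reads per library were counted on genes, and a gene with 0 reads could still have had 0.179 to 0.243 CPM (counts scaled by library size and TMM), for counting error only. Every member had at least 26 reads in every library. Libraries of the same group differed from each other by more than counting noise (mean chi-square across genes 1.81 to 16.6), so none was counted as a repeat of another. Neuronal markers were detected in all libraries (6 of 6 genes, 3738 to 4759 CPM summed). Dominant male 1 stood apart, with 187 CPM summed over 8 cerebellar markers against 588 to 1088 CPM in the other libraries, and with Pcp2, a Purkinje cell marker, at 0. The sexes were prepared as separate sets by their library names, so a difference between males and females cannot be told apart from a difference between the sets. In whole hemisphere RNA, fewer cells of a type and less RNA per cell cannot be told apart either.

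The members spanned a wide range of expression. Per kilobase of exon (RPKM), Mt2 was highest in the 14 males, at 58.9 ± 4.72 RPKM (SD, n = 14), followed by Tsc22d3 at 37.9 ± 2.34, Sgk1 at 17.8 ± 2.82, Ddit4 at 13.4 ± 1.36 and Nfkbia at 9.70 ± 1.145 RPKM. Sult1a1 (5.32 ± 0.764 RPKM), Zbtb16 (5.15 ± 0.609 RPKM) and Fkbp5 (4.99 ± 0.573 RPKM) did not differ beyond their spread. Cdkn1a followed with 3.08 ± 0.333 RPKM, and Plin4 was lowest with 0.519 ± 0.0977 RPKM. The 8 females gave nearly the same order, with Mt2 at 72.1 ± 8.30 RPKM (SD, n = 8) and Plin4 at 0.606 ± 0.325 RPKM. Fkbp5 alone changed place, standing at 7.32 ± 1.38 RPKM in females above Sult1a1 with 5.73 ± 1.58 and Zbtb16 with 5.27 ± 0.802 RPKM, within their spread.

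**Figure D1:**
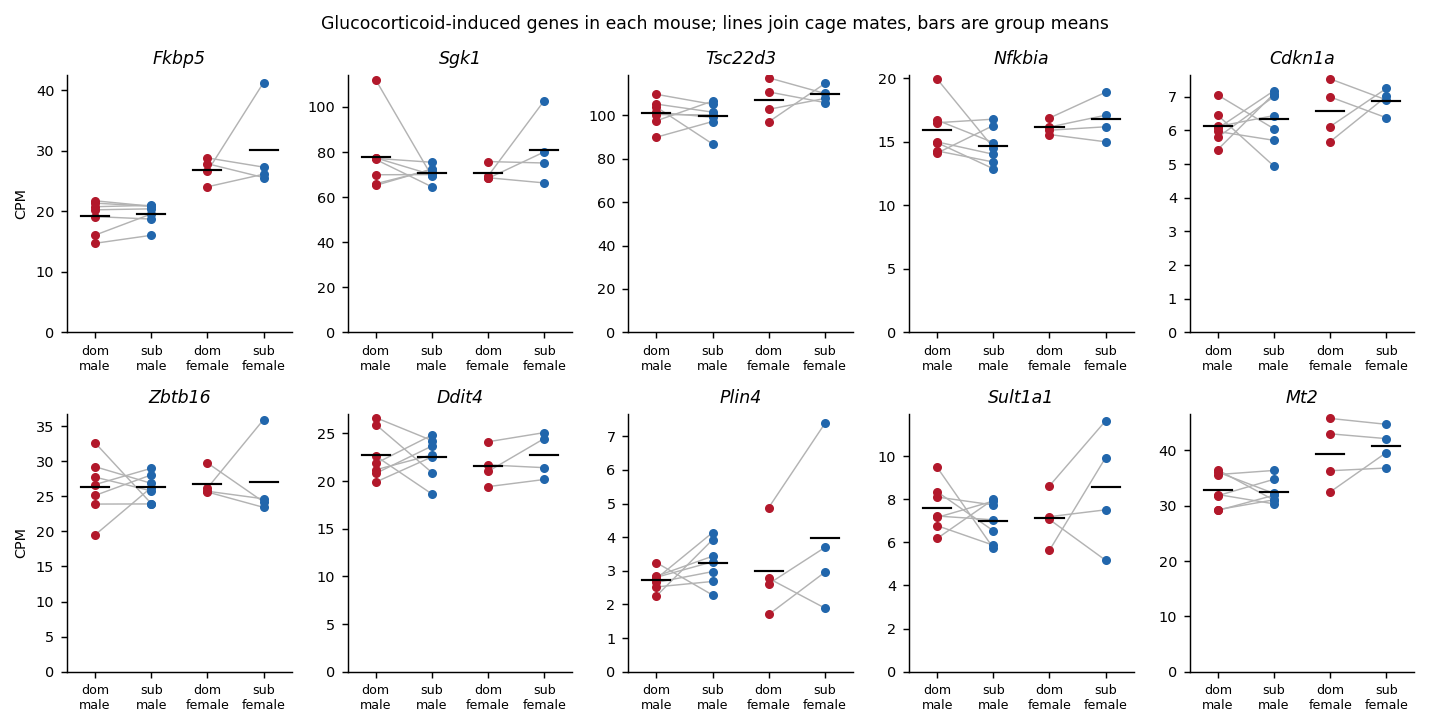
Expression of the 10 glucocorticoid-induced genes in each of the 22 mice, in CPM on an axis from 0, by rank and sex; each point is 1 mouse, grey lines join cage mates and black bars are group means. Dominant and submissive points overlap for every gene in both sexes, and submissive female 2 lies apart for Fkbp5, at 41.3 CPM, and for Zbtb16, at 35.9 CPM.

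Whether rank moved these genes was asked within each sex with the quasi-likelihood test of edgeR, adjusted by Benjamini-Hochberg over all genes tested, at a threshold of 0.05. In males 0 of 10 members passed, where 0% of all 14737 genes did. Unadjusted p-values under 0.05 were found for 0 members and for 1.32% of genes, and DESeq2 also called 0 members. In females 0 of 10 members passed, where 14 of 14865 genes did (0.0942%). There the unadjusted p was under 0.05 for 1 member, Sgk1, against 10.5% of genes, and DESeq2 again called 0 members. With the cage as a block, 2 members had an unadjusted p under 0.05, Sgk1 and Plin4, against 10.3% of genes, and 0 passed. No member had its dominant and submissive mice without overlap in either sex. Among all genes, non-overlapping ranks were seen in 3.36% with dominant females higher and 2.1% with dominant females lower, and in males in 0% and 0.00679%.

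The log2 fold changes, dominant over submissive, ran from -0.26 (Plin4) to 0.14 (Sgk1) in males, with a median of 0.012 against -0.0015 over all genes, and 3 of 10 lay below 0, against 51.4% of genes. With 1 male left out at a time, 3 to 5 lay below 0. The median was 0.041 without dominant male 1, -0.0022 without dominant male 4, 0.0028 without dominant male 5 and 0.0032 without submissive male 4, and 5 lay below 0 without each of the last 3. In females all 10 lay below 0, where 50.9% of all genes did, from -0.41 (Plin4) to -0.021 (Zbtb16), with a median of -0.082 against -0.0020. This count rests in part on 1 mouse: without submissive female 2, 7 of 10 lay below 0 and the median was -0.053. Leaving out dominant female 3 left 8 below 0, and leaving out dominant female 4 left 9 with a median of -0.14. Without submissive female 1 the median was -0.13, and without any of the other females all 10 stayed below 0. Markers of the choroid plexus had the same sign: 8 of 8 lay below 0 in females, with a median of -0.23 and 5 at an unadjusted p under 0.05, and 8 of 8 above 0 in males, with a median of 0.065. Their summed level was 737 to 892 CPM in dominant and 705 to 1052 CPM in submissive females, lowest in submissive female 2, and 629.8 to 1110.0 CPM in dominant and 498 to 892 CPM in submissive males. Summed astrocyte markers did not overlap by rank in females, at 4242 to 4357 CPM in dominant and 3988 to 4171 CPM in submissive mice, with Slc1a2 the 1 of 6 at an unadjusted p under 0.05 and 3 of 6 below 0. Alas2, the 1 erythroid marker of 5 that passed the filter, had 3.86 to 5.99 CPM in dominant and 2.56 to 3.78 CPM in submissive females, a log2 difference of 0.65 (adjusted p = 0.149 from edgeR). The part of these markers in the values of the members was not tested. The difference between the sexes was tested as the interaction of rank and sex over all 22 mice, and 0 of 10 members passed, where 0% of 15233 genes did. All 10 interaction values lay below 0, against 47.4% of genes, and 6 of 10 without submissive female 2, 7 without dominant female 3 and 8 to 10 without any other mouse. Of the choroid plexus markers, 8 of 8 lay below 0 here too, with a median of -0.31 and 4 at an unadjusted p under 0.05. An unadjusted p under 0.05 was found there for 1 member, Sgk1, and for 3.32% of genes, and DESeq2 called 0 members.

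**Figure D2:**
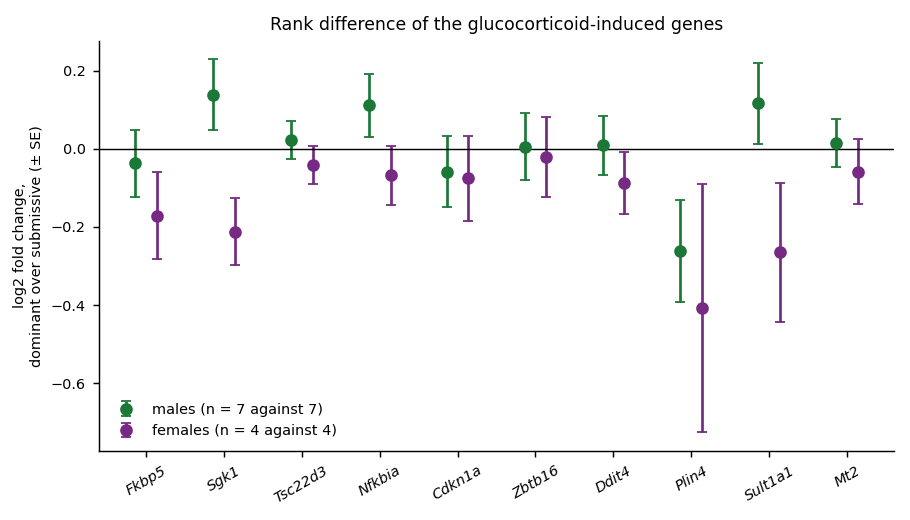
Log2 fold change of each glucocorticoid-induced gene, dominant over submissive, with its standard error, in males (7 against 7 mice) and females (4 against 4 mice). In females every point lies below 0, and Plin4 has the widest error, 0.318, around a fold change of -0.41.

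Fkbp5, the co-chaperone of Hsp90 that dampens the receptor (chromosome 17, 28398753 to 28486149, minus strand, mm10), had 1 mouse far above the rest of its group. Dominant males had 14.7 CPM at the lowest, 20.2 at the median and 21.7 at the highest, and submissive males 16.03, 20.4 and 21.0 CPM. The ranks overlapped over nearly their whole range, with a log2 fold change of -0.037 (SE 0.0853, adjusted p = 1.00). In females, from replicate 1 to replicate 4, dominant mice had 28.8, 26.6, 24.0 and 27.9 CPM and submissive mice 27.3, 41.3, 26.1 and 25.6 CPM. Submissive female 2 lay far above the other females, and the log2 fold change of -0.17 (SE 0.112, adjusted p = 0.644) became 0.019 without it. Fkbp5 was also the only member for which all 8 females (24.0 to 41.3 CPM) lay above all 14 males (14.7 to 21.7 CPM), as did 4.03% of the 15233 genes. Summed neuronal markers were also higher in every female, at 4464 to 4759 CPM, than in every male, at 3738 to 4296 CPM, mostly through Snap25, a synaptic fusion protein, with 1831 to 2020 against 1339 to 1627 CPM, while Syt1, Slc17a7, Gad1 and Gad2 overlapped. Summed astrocyte markers were lower in every female, at 3988 to 4357 against 4523 to 5488 CPM, mostly through Slc1a2, a glutamate transporter, with 2296 to 2608 against 2657 to 3709 CPM, while Gfap, Aqp4, Slc1a3 and Gja1 overlapped between the sexes. The other neuronal marker, Rbfox3, had 95.3 to 111.2 CPM in females against 66.6 to 96.3 CPM in males. The other astrocyte marker, Aldh1l1, had 63.5 to 82.1 CPM in females against 80.5 to 99.0 CPM in males. The part of either marker list in the Fkbp5 level was not tested.

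Sgk1, the serum- and glucocorticoid-regulated kinase that controls ion channels and transporters (chromosome 10, 21882184 to 21999902, plus strand), had fold changes of opposite sign in the sexes, and neither passed the test. Dominant males had 65.2, 76.7 and 112 CPM at the lowest, median and highest, and submissive males 64.6, 70.0 and 75.5 CPM. Most dominant males lay within the submissive range or just above it, and dominant male 4 alone reached 112 CPM. The log2 fold change was 0.14 (SE 0.0908, adjusted p = 1.00), and 0.029 without dominant male 4. Dominant females had 68.6, 68.3, 75.8 and 69.4 CPM and submissive females 66.3, 80.1, 75.1 and 102.8 CPM from replicate 1 to 4. Here a submissive mouse, submissive female 4, was the high one. The log2 fold change in females was -0.21 (SE 0.0865, unadjusted p = 0.0239, adjusted p = 0.385), and -0.072 without submissive female 4. A fit with the cage as a block gave -0.20 (SE 0.0692, unadjusted p = 0.00985, adjusted p = 0.297 from edgeR). Females minus males gave an interaction of -0.34 (SE 0.153, unadjusted p = 0.0348, adjusted p = 0.999), which was -0.23 without dominant male 4 and -0.20 without submissive female 4. The promoter with the full response element shown above belongs to 1 of several RefSeq start sites of Sgk1, and the counts do not tell them apart.

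Ddit4, the stress-induced inhibitor of mTORC1 (chromosome 10, 59949675 to 59951770, minus strand), did not pass the test of rank. Dominant males had 19.9, 21.9 and 26.7 CPM at the lowest, median and highest, and submissive males 18.7, 22.8 and 24.8 CPM (log2 fold change 0.0092, SE 0.0752, adjusted p = 1.00). Dominant females had 19.4, 21.7, 21.0 and 24.1 CPM and submissive females 20.2, 21.4, 24.5 and 25.1 CPM from replicate 1 to 4. Dominant over submissive ratios were 0.963, 1.01, 0.859 and 0.961 in the 4 female pairs, with the widest gap in replicate 3. The log2 fold change was -0.088 (SE 0.0786, adjusted p = 0.761), -0.034 without submissive female 4 and -0.14 without dominant female 4.

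Tsc22d3, which encodes the glucocorticoid-induced leucine zipper, an anti-inflammatory protein, lies on the X chromosome (140539529 to 140600522, minus strand) and had the highest CPM of the members. Its relative spread between mice was the narrowest of the members, and all 22 values lay between 86.8 and 117 CPM. Dominant males had 90.0, 101 and 109.7 CPM at the lowest, median and highest, and submissive males 86.8, 100.2 and 107 CPM (log2 fold change 0.022, SE 0.0484, adjusted p = 1.00). Dominant females had 111, 117, 103 and 97.0 CPM and submissive females 106, 110.1, 108 and 115 CPM (log2 fold change -0.042, SE 0.0490, adjusted p = 0.833). The 95% interval of the fitted fold change ran from -0.073 to 0.12 in males and from -0.14 to 0.055 in females on the log2 scale.

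Nfkbia encodes IkB-alpha, which holds NF-kB in the cytoplasm and is itself an NF-kB target (chromosome 12, 55489409 to 55492647, minus strand). It shares 15 exon bases with Mir1198. Dominant males had 14.1, 14.99 and 19.9 CPM at the lowest, median and highest, and submissive males 12.9, 14.5 and 16.8 CPM. The highest male was again dominant male 4, and the log2 fold change of 0.11 (SE 0.0802, adjusted p = 1.00) was 0.052 without it. Dominant females had 15.6, 16.2, 15.9 and 16.9 CPM and submissive females 15, 17.1, 16.2 and 18.9 CPM, with submissive female 4 highest. The log2 fold change was -0.067 (SE 0.0754, adjusted p = 0.820), -0.0022 without that mouse and -0.12 without submissive female 1.

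Cdkn1a, the cyclin-dependent kinase inhibitor p21, which p53 also induces (chromosome 17, 29090986 to 29100722, plus strand), was among the lower members. Dominant males had 5.43, 6.06 and 7.05 CPM at the lowest, median and highest, and submissive males 4.94, 6.44 and 7.18 CPM (log2 fold change -0.058, SE 0.0908, adjusted p = 1.00). The male value was -0.11 without submissive male 2 and -0.027 without submissive male 5. Dominant females had 6.12, 5.67, 7.53 and 7.00 CPM and submissive females 7.25, 7.01, 6.91 and 6.38 CPM (log2 fold change -0.076, SE 0.108, adjusted p = 0.864). The female value was -0.011 without dominant female 2 and -0.15 without dominant female 3. The sign differed between cages, with the dominant mouse higher in 3 of 7 male and 2 of 4 female pairs. Among 8 other p53 targets, 0 passed the test of rank in either sex, and the unadjusted p was under 0.05 for 0 in males, against 1.32% of all genes, and 1 in females, against 10.5%.

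Zbtb16, a zinc finger repressor of transcription also called PLZF (chromosome 9, 48654297 to 48835945, minus strand), varied more among dominant than among submissive males. Dominant males had 19.5, 26.7 and 32.6 CPM at the lowest, median and highest, and submissive males 23.9, 26.3 and 29.0 CPM, so the submissive values lay inside the dominant range. The highest was dominant male 1, the mouse low in cerebellar markers, and the part of cerebellar tissue in this value was not tested. The log2 fold change was 0.0059 (SE 0.0852, adjusted p = 1.00), and turned to -0.0019 with the cage as a block. Dominant females had 25.7, 26.2, 25.6 and 29.8 CPM and submissive females 24.6, 35.9, 23.4 and 24.2 CPM (log2 fold change -0.021, SE 0.102, adjusted p = 0.966). In 3 of 4 female pairs the dominant mouse was higher. The fitted value changed sign without submissive female 2, to 0.14, and without dominant female 3, to 0.0015.

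Plin4, a coat protein of lipid droplets (chromosome 17, 56100591 to 56109802, minus strand), was the lowest member and the one with the widest relative spread. It shares 14 exon bases with Hdgfrp2 on the other strand. Dominant males had 2.25, 2.77 and 3.24 CPM at the lowest, median and highest, and submissive males 2.28, 3.27 and 4.14 CPM. The dominant mouse was lower in 6 of 7 male pairs, and the log2 fold change was -0.26 (SE 0.131, unadjusted p = 0.0603, adjusted p = 1.00). Dominant females had 2.77, 4.88, 1.70 and 2.62 CPM and submissive females 1.89, 7.39, 2.96 and 3.70 CPM, with the dominant mouse lower in 3 of 4 pairs. Both females of replicate 2 were above all others. The log2 fold change was -0.41 (SE 0.318, adjusted p = 0.712), and 0.071 without submissive female 2. With the cage as a block it was -0.40 (SE 0.177, unadjusted p = 0.0374, adjusted p = 0.453 from edgeR).

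Sult1a1, a sulfotransferase of phenols and catechols (chromosome 7, 126672870 to 126676357, minus strand), resembled Plin4 in its high mice. Dominant males had 6.18, 7.22 and 9.48 CPM at the lowest, median and highest, and submissive males 5.74, 7.05 and 7.99 CPM (log2 fold change 0.12, SE 0.103, adjusted p = 1.00). Without dominant male 4, its highest male, the fold change was 0.058. Dominant females had 7.06, 8.62, 5.63 and 7.19 CPM and submissive females 5.17, 11.6, 9.93 and 7.51 CPM (log2 fold change -0.27, SE 0.178, adjusted p = 0.657). The ranks overlapped, and the value was -0.081 without submissive female 2 and -0.44 without submissive female 1.

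Mt2, a metallothionein that binds zinc and copper and answers to metals as well as to glucocorticoids (chromosome 8, 94172618 to 94173567, plus strand), lies beside its paralog Mt1. Dominant males had 29.1, 32.0 and 36.5 CPM at the lowest, median and highest, and submissive males 30.3, 31.9 and 36.4 CPM (log2 fold change 0.016, SE 0.0614, adjusted p = 1.00). Dominant females had 36.3, 43.0, 32.5 and 45.8 CPM and submissive females 36.8, 42.1, 39.6 and 44.7 CPM (log2 fold change -0.059, SE 0.0827, adjusted p = 0.864). In 3 of the 4 female pairs the cage mates lay close together, with dominant over submissive ratios of 0.987, 1.02 and 1.02, and in replicate 3 the ratio was 0.820. Reads that fit both Mt2 and Mt1 could be assigned to either, since the treatment of such reads is not given in the sources used here. Mt1 itself had a log2 fold change of 0.034 (SE 0.0498) in males and -0.089 (SE 0.0503) in females.

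Home cage was then tested in place of rank, as all cage terms together in a fit with rank and cage. The term holds housing, the time of sacrifice and handling together, because cage mates shared all of them, and in females it may also hold the regrouping of replicates 3 and 4. In males 0 of 10 members passed at an adjusted p under 0.05, where 868 of 14737 genes did (5.89%), and DESeq2's likelihood ratio test called 0 members as well. The unadjusted p was under 0.05 for 1 member, Fkbp5, against 22.3% of genes. Fkbp5 was nearest to the threshold (F = 5.73, adjusted p = 0.0568 from edgeR), with 14.7 to 19.6 CPM in the mice of replicates 1 to 3 and 20.2 to 21.7 CPM in those of replicates 4 to 7. It passed without replicate 1 (adjusted p = 0.0144). Within replicates 1 to 4 alone its adjusted p was 1.00, and within replicates 5 to 7 alone 0.969, where 2 and 0 of all genes passed.

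In females 1 of 10 members passed the cage test, where 11 of 14865 genes did (0.074%). Plin4 differed between cages (F = 16.1, adjusted p = 0.0338 from edgeR), with a cage mean of 6.13 CPM in replicate 2 and 2.33 CPM in replicate 3. This call rested on replicate 2 and its submissive mouse. The adjusted p was 0.865 without replicate 2, 0.272 without submissive female 2, 0.0560 without replicate 3 and 0.712 with DESeq2. An unadjusted p under 0.05 was found for 7 of 10 members, Fkbp5, Sgk1, Zbtb16, Ddit4, Plin4, Sult1a1 and Mt2, against 5.11% of genes. So had 6 of 8 cerebellar markers, of which 0 passed after adjustment, and their summed level was 988 and 724 CPM in replicate 2, 763 and 921 CPM in replicate 4 and 943 to 1088 CPM in the other 4 females. The part of cerebellar tissue in the values of the members was not tested. After Plin4 the smallest was that of Mt2 (adjusted p = 0.379 from edgeR), with cage means of 36.0 CPM in replicate 3 and 45.2 CPM in replicate 4. The members are not independent of each other in these 8 mice. The high cage was replicate 2 for Fkbp5, Zbtb16, Plin4 and Sult1a1 and replicate 4 for Sgk1, Ddit4 and Mt2. For Fkbp5, Zbtb16 and Sgk1 the high cage mean came from 1 mouse. Dominant female 2 had 26.6 CPM of Fkbp5 and 26.2 CPM of Zbtb16, against 41.3 and 35.9 CPM in its cage mate. Dominant female 4 had 69.4 CPM of Sgk1, against 102.8 CPM in its cage mate.

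**Figure D3:**
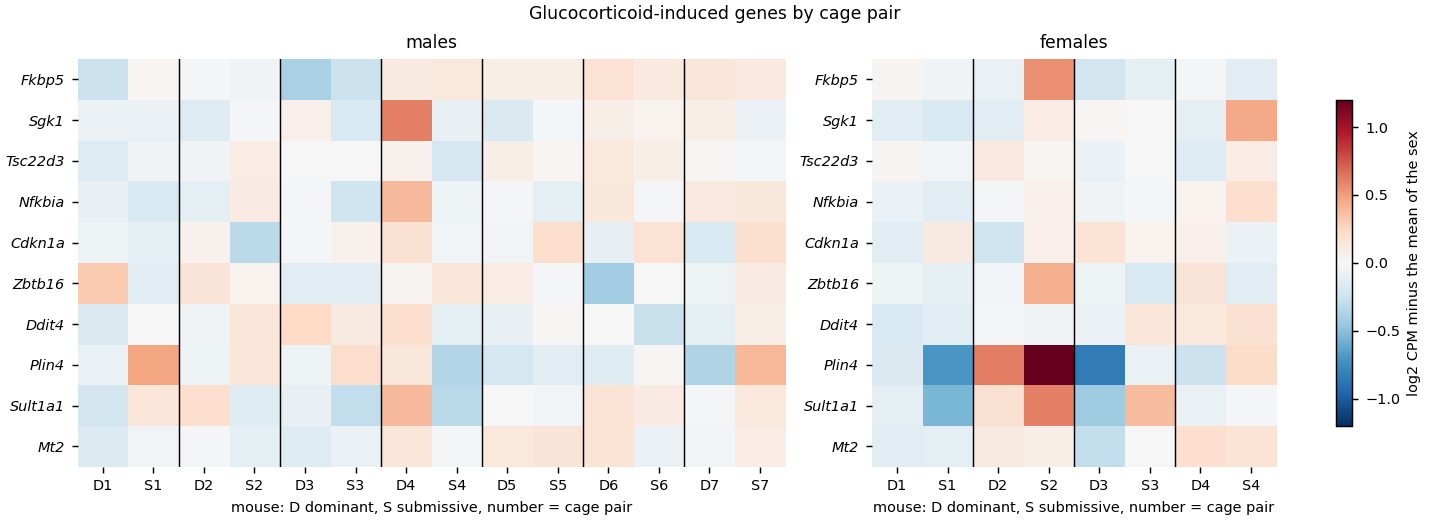
Log2 CPM of the 10 members in each mouse, less the mean over all mice of that sex, with cage mates side by side (D dominant, S submissive, number the replicate). Submissive female 2 (S2) is high for Fkbp5, Zbtb16, Plin4 and Sult1a1, submissive female 4 (S4) for Sgk1 and Nfkbia, and dominant male 4 (D4) for Sgk1, Nfkbia and Sult1a1.

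**Figure D4:**
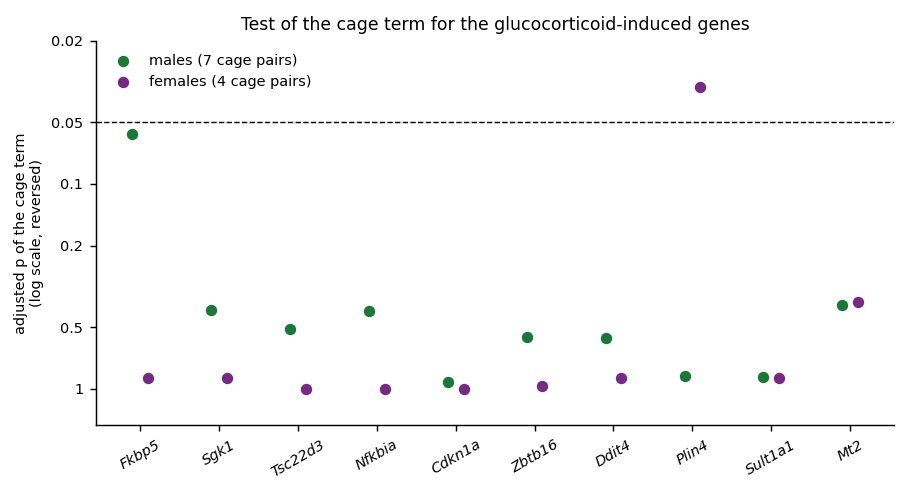
Adjusted p of the cage term for each member, in males (7 cage pairs) and females (4 cage pairs), on a reversed log axis with the threshold of 0.05 dashed. Plin4 in females, at 0.0338, is the only point past the line, and Fkbp5 in males, at 0.0568, is the next.

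Some mice were high or low for several members at once, and for some of them the count was near the share over all genes. Submissive female 2 was the highest of its group for 4 members and the lowest for 0. It was highest for 29.3% of all genes in its group of 4, a share near that count. Of 24 other glucocorticoid-responsive genes detected, 11 were also highest in this mouse, among them Klf9, a hormone-induced transcription factor, with 185 CPM against 161 to 169.6 CPM in the other submissive females, and Hif3a, an inhibitor of hypoxia signalling, with 2.32 against 1.05 to 1.49 CPM. Submissive female 4 was highest for 5 members, Sgk1, Tsc22d3, Nfkbia, Ddit4 and Mt2, and lowest for Fkbp5 and Cdkn1a, where 21.3% of all genes were highest in it. Only 1 mouse of a group can be highest for a gene, so its list could not overlap that of submissive female 2. Submissive female 2 was next highest for Sgk1 (80.1 CPM), Tsc22d3 (110.1 CPM), Nfkbia (17.1 CPM) and Mt2 (42.1 CPM), but not for Ddit4. Submissive female 1 was lowest for 7 members, against 22.3% of all genes. Among dominant females, female 4 was highest for 4 members, Nfkbia, Zbtb16, Ddit4 and Mt2, against 27.4% of all genes, a share near that count. Dominant female 3 was lowest for 5, Fkbp5, Zbtb16, Plin4, Sult1a1 and Mt2, against 22.6%, and highest for Sgk1 and Cdkn1a and for 10 of 10 immediate early genes. Among males, dominant male 4 was highest of its 7 for 5 members, Sgk1, Nfkbia, Cdkn1a, Plin4 and Sult1a1, and lowest for 0, where 13.2% of all genes were highest in it. It was highest for 8 of the 24 other glucocorticoid-responsive genes and for 0 of 10 immediate early genes, which report recent neuronal activity. Dominant male 1 was lowest for 4 members, Tsc22d3, Ddit4, Sult1a1 and Mt2, against 17.1% of all genes. Submissive male 3 was lowest for 4 members, Fkbp5, Sgk1, Nfkbia and Zbtb16, against 12.9%. These mice were picked for their values, so the counts describe them and no test was made.

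Across the 22 mice, after removal of the 4 group means, log2 CPM of some members moved together. The highest correlation was that of Sgk1 and Nfkbia, with r = 0.794 (0.780 among males, 0.889 among females), followed by Plin4 and Sult1a1, with r = 0.763 (0.526 and 0.860), Fkbp5 and Sult1a1, with r = 0.564 (0.561 and 0.584), and Sult1a1 and Mt2, with r = 0.522 (0.546 and 0.514). The lowest was that of Tsc22d3 and Zbtb16, with r = -0.454 (-0.619 among males, -0.177 among females). Next lowest was that of Fkbp5 and Ddit4, with r = -0.339 (-0.343 and -0.347). Some pairs had unlike values in the sexes, a difference that was not tested. Tsc22d3 and Cdkn1a had r = -0.0107 in males and -0.876 in females. Fkbp5 and Zbtb16 had r = -0.124 in males and 0.925 in females, where submissive female 2 was high for both, and Fkbp5 and Mt2 had 0.719 in males and 0.230 in females. The points share libraries, cages and the mice that lie apart, so these values are descriptions. Outside the members, among 14659 genes, the patterns most like Fkbp5 were those of Abcg2 (r = 0.765), Zc3h15 (0.765) and Eif5 (0.756). Sgk1 was closest to Atf3 (0.724), Ldb1 (0.715) and Cipc (0.714), and Nfkbia to Ldb1 (0.768), Sdpr (0.723) and Rhoj (0.703). Tsc22d3 was closest to Mmgt1 (0.850), Ube2e3 (0.849) and Ptgds (0.835), Zbtb16 to Armcx4 (0.837), Acan (0.830) and Cyld (0.789), and Mt2 to Art3 (0.815), S1pr5 (0.806) and Txnip (0.781). For Ddit4 they were Mmp14 (0.761), Tob2 (0.750) and Lrrk1 (0.746), and for Cdkn1a Dvl2 (0.730), Nabp2 (0.729) and Rarb (0.714). Plin4 was nearest to Thnsl1 (0.692), Gjb6 (0.691) and Mir496a (0.690), and Sult1a1 to Cenpq (0.758), Slc26a7 (0.756) and Mgp (0.730). The likeness of Plin4 to Thnsl1 was not shared by the sexes, with r = -0.124 in males and 0.924 in females.

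A wider list of 25 other glucocorticoid-responsive genes, of which 24 passed the filter, was tested in the same way. By rank, 0 of 24 passed in either sex, and an unadjusted p under 0.05 was found for 1 in males, where 1.32% of all genes had one, and 5 in females, where 10.5% did. Below 0 lay 10 of 24 in males, against 51.4% of all genes, and 17 of 24 in females, against 50.9%, with a median log2 fold change of 0.016 in males and -0.064 in females. In males 3 of 24 passed the cage test, where 5.89% of all genes did. They were Dusp1, a phosphatase of MAP kinases (adjusted p = 0.00515), Rhob, a small GTPase (adjusted p = 0.00664), and Per1, a clock gene with glucocorticoid response elements (adjusted p = 0.0345, all from edgeR). In females 1 of 24 passed, where 0.074% of all genes did. It was Dusp1 again (adjusted p = 0.000475 from edgeR), which stood at 23.8 and 21.3 CPM in the females of replicate 3 and at 9.77 to 17.1 CPM in the other 6. Dusp1 is also an immediate early gene. Replicate 3 held the lowest cage means of Fkbp5, Tsc22d3, Zbtb16 and Mt2 among females, and for Plin4 it was level with replicate 1, at 2.33 CPM. The share of all genes lowest in replicate 3 was not counted, and a link to Dusp1 was not tested.

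**Figure D5:**
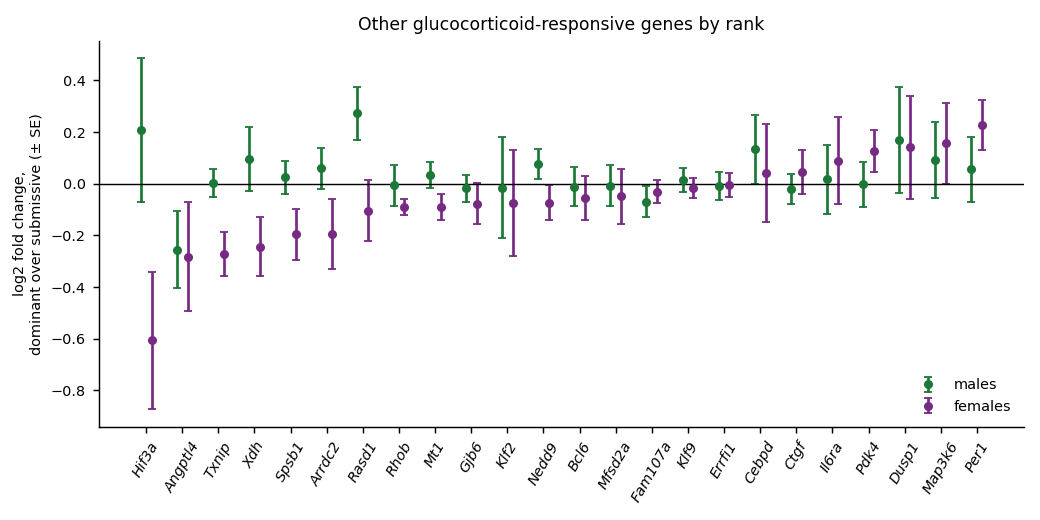
Log2 fold change, dominant over submissive, with its standard error for the other glucocorticoid-responsive genes that passed the filter, ordered by their value in females. In females 17 of 24 lie below 0, from -0.61 (Hif3a) to 0.23 (Per1), and 0 of 24 pass the test in either sex.

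Genes that carry the hormone signal to the members also did not pass the test of rank. Of 14 genes for the receptors, their chaperones and coactivators and the corticotropin-releasing hormone system, 0 passed for rank or cage in either sex, where all genes gave 0% and 0.0942% for rank and 5.89% and 0.074% for cage in males and females. Nr3c1, the glucocorticoid receptor itself, is named after its values were seen. It had 252 to 271 CPM in dominant and 248 to 266 CPM in submissive males (log2 fold change 0.016, SE 0.0318, adjusted p = 1.00). In females it had 257 to 276 CPM in dominant and 236 to 261 CPM in submissive mice, with 1 submissive mouse inside the dominant range, a log2 fold change of 0.10 (SE 0.0356), an unadjusted p of 0.00939 and an adjusted p of 0.290. Of 7 other NF-kB targets tested in each sex, and of 7 genes of the integrated stress response in males and 8 in females, 0 passed for rank or cage, against the same shares of all genes.

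Immediate early genes follow recent activity and clock genes the time of day. Of 10 immediate early genes, 6 passed the cage test in males, led by Fos, Nr4a1, Arc and Egr2, where 5.89% of all genes passed, and 4 in females, Arc, Fos, Nr4a1 and Btg2, where 0.074% passed. Summed over the list, the males of replicates 1 to 4 had 185 to 317 CPM and those of replicates 5 to 7 143 to 189 CPM. In females, those of replicate 3 had 384 and 290 CPM and the other 6 had 179 to 264 CPM. Of 12 clock genes, 2 passed in males, Per3 and Per2, and 0 in females, where 5 of 12 had an unadjusted p under 0.05, against 5.11% of all genes. By rank, 0 immediate early and 0 clock genes passed in either sex. In females the unadjusted p for rank was under 0.05 for 2 of 10 immediate early and 4 of 12 clock genes, against 10.5% of all genes, and in males for 0 of either, against 1.32%. Of the immediate early genes, 9 of 10 lay above 0 in females, with a median log2 fold change of 0.21, and 8 of 10 in males, with a median of 0.11. Activity, the time of sacrifice and housing move together with cage here, and their part in the values of Plin4 and Fkbp5 was not tested.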

How the data were processed

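The authors trimmed the reads with cutadapt 1.15, aligned them with STAR 2.6.0a to mm10 and, with featureCounts 1.6.2, made the deposited raw counts per gene. The strand setting and the handling of multi-mapped reads are not given in the sources used here. Groups came from the sample labels. Counts were scaled by TMM and tested within each sex with edgeR 4.0.16 (R 4.3.3), with rank as the only term. Genes were kept by the expression filter of edgeR (minimum count 10, minimum total 15), and p-values were adjusted over all genes tested. Cage was tested as all cage terms together. Log2 CPM used a prior count of 2, and 95% intervals come from the standard error. Alternatives were DESeq2 1.42.0, other scaling and filters, a robust prior, the cage as a block, a length offset (loess span 0.3) and leaving out samples. Leaving out single mice in the cage test was added after seeing the data. The tests were tested on simulated data.

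Replicate numbers pair cage mates, from the cage in the library names and the simultaneous sacrifice. Across genes, cage mates deviated from their groups with a mean correlation of 0.177 in males (-0.0345 to 0.274), against -0.0293 for other pairs, and of 0.0241 against -0.00806 in females. Nothing in the labels says how libraries were batched within a sex. The members and gene lists were chosen with earlier results of these data known. The genes named are the 10 members, list genes called for rank or cage (at most 4 per list), markers beside a result and the 3 genes most like each member; Nr3c1, Mt1, Klf9 and Hif3a were named after their values were seen.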

Additional observations from a re-analysis of the deposited data

Results flagged for a closer look

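In 5 of 40 sets of values (10 members in 4 groups), 1 mouse lay far from its group by Dixon's test, where chance flags about 1 in 20 groups. The sets share mice and the members are not independent, so the count is not a test against that share. Submissive female 2 had 41.25 CPM of Fkbp5, against 25.57 to 27.29 CPM in the other submissive females, and 35.93 CPM of Zbtb16, against 23.42 to 24.64 CPM. Dominant male 4 had 112 CPM of Sgk1, against 65.2 to 77.4 CPM in the other dominant males. Dominant female 3 had 75.77 CPM of Sgk1, against 68.31 to 69.37 CPM, a small gap in a tight group. Dominant female 4 had 29.75 CPM of Zbtb16, against 25.61 to 26.17 CPM. Beside these values, submissive female 2 had 723.5 CPM summed over cerebellar markers, the lowest among females, and 4787 CPM over 8 oligodendrocyte markers, which with the 4827 CPM of dominant female 3 were the lowest of the 22 libraries (5278 to 6336 CPM in the others). Dominant female 4 was the lowest dominant female for cerebellar (763.1 CPM) and endothelial markers (219.9 CPM), and dominant male 4 had 5324 CPM over astrocyte markers, the highest of its group. Their part in the values was not tested.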

How the results depend on the processing

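In the tests of rank and of its interaction with sex, 0 members passed under every alternative run, including the replicate block and each fit that left out a mouse. The cage test was less settled. In males 0 members passed in the reported fit and 1, Fkbp5, without a filter (adjusted p = 0.0383 from edgeR) and with the length offset (adjusted p = 0.0415), and 0 to 1 with replicates or single mice left out. The 1 was Fkbp5 without replicate 1 or either of its mice and Sgk1 without submissive male 4. A fit without 1 mouse leaves its cage mate alone, and the term of that cage then fits a single mouse. For Sgk1 that mouse was dominant male 4, at 112 CPM. In females 1 passed in the reported fit, 0 with DESeq2's likelihood ratio test, 5 without a filter (Plin4, Fkbp5, Sgk1, Sult1a1 and Mt2) and 0 to 3 with replicates or mice left out. Fkbp5 and Zbtb16 passed without dominant female 2, Sgk1 without dominant female 4 and Mt2 without submissive female 3. These fits left submissive female 2 (Fkbp5 41.25 and Zbtb16 35.93 CPM), submissive female 4 (Sgk1 102.8 CPM) and dominant female 3 (Mt2 32.48 CPM) alone. Such a pass shows 1 mouse that lay apart and not a difference shared by cage mates.

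Over all genes, rank in females gave 14 calls, against 78 with DESeq2, 84 without a filter, 2 at a mean count of at least 100, 36 with the replicate block, 0 with the length offset, 8 with both, and 0 to 77 with a mouse left out. Cage in males gave 868, against 547 with the length offset, 2 in replicates 1 to 4, 0 in replicates 5 to 7 and 375 to 2102 with samples left out. Cage in females gave 11, against 5 with DESeq2, 99 without a filter and 2 to 92 with samples left out. The causes were not tested.

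Of the 30 log2 fold changes of members, 15 changed sign in some fit, 1 time with the replicate block, where Zbtb16 in males was -0.0019, and 42 times with 1 mouse left out. With single mice left out, the values in males ran from -0.079 to 0.017 for Fkbp5, -0.0075 to 0.049 for Tsc22d3, -0.052 to 0.069 for Zbtb16, -0.033 to 0.039 for Ddit4 and -0.010 to 0.044 for Mt2. In females they ran from -0.24 to 0.019 for Fkbp5, -0.092 to 0.0028 for Tsc22d3, -0.081 to 0.14 for Zbtb16, -0.76 to 0.071 for Plin4 and -0.14 to 0.023 for Mt2. The interaction ran from -0.20 to 0.065 for Fkbp5, -0.080 to 0.058 for Cdkn1a, -0.081 to 0.15 for Zbtb16, -0.49 to 0.34 for Plin4 and -0.14 to 0.015 for Mt2. The replicate block changed no call of a member. With 26 to 118 reads per library, the values of Plin4 also carry counting error.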
